A study of Schmidtea mediterranea with 32 samples.

Results

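Control planarians fed 8 times were compared with control planarians fed 4 times, on the transcript contigs whose identifiers begin with SmedSXL. The members were chosen from the library names: 4 control libraries at 8 feedings and 4 at 4 feedings, which are 8 of the 32 libraries of the series. Of the 177783 reference sequences that were counted, 93783 carry the SmedSXL prefix, and 23870 of those had enough counts to be tested, out of 45762 tested in all. The prefix is read here as a transcript assembly of sexual animals, which is an inference from the name.

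All libraries are poly(A)-selected RNA of whole animals of the flatworm Schmidtea mediterranea, Sexual S2F2 biotype. The controls received RNAi labelled UNC, and the other arm of the series received RNAi against nhr-1, with both arms sampled after 4, 6, 8 and 11 feedings. The labels do not say what UNC stands for, how old or large the animals were, how many animals entered a library, or whether replicates were separate cultures. The p-values therefore measure the spread between these libraries, part of which may be technical. Each of the 2 groups compared holds a replicate named 1 and replicates named s1, s2 and s3, and the meaning of the s is not explained in the labels.

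Sexual planarians are hermaphrodites that carry ovaries, testes and yolk-producing glands in the same animal. Their reproductive organs grow and shrink with body size and food supply, so repeated feeding is a physiological variable as well as the usual way of delivering double-stranded RNA. The gene nhr-1 encodes a nuclear hormone receptor, a transcription factor of the class that responds to lipid-like ligands, and in this species it is required for the reproductive system. A series of control animals at successive feedings shows how much the transcript profile moves without the knock-down. In whole-animal RNA, more or fewer cells of a type and more or less RNA per cell cannot be told apart. Gene names do not accompany the identifiers, so contigs are given here by identifier and no role is assigned to them, and tissue markers were not checked.

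No SmedSXL contig differed between 8 and 4 feedings at a Benjamini-Hochberg adjusted p under 0.05 by edgeR's quasi-likelihood test, and the smallest adjusted p was 0.131. At an unadjusted p under 0.05 there were 4737 contigs (19.8% of those tested), of which 1950 (8.17%) were higher and 2787 (11.7%) lower at 8 feedings. DESeq2 called 39 contigs on the same counts, 35 higher (0.147%) and 4 lower (0.0168%). Limma voom with sample weights called 6155, of which 2321 (9.72%) were higher and 3834 (16.1%) lower. The 4 libraries of each group did not overlap for 3098 contigs (13%), with 1563 (6.55%) higher and 1535 (6.43%) lower at 8 feedings. The count of calls in this comparison thus ran from 0 to 6155 by the test used, while the estimated changes centred on zero, with a median log2 fold change of 0.00 and a range from -0.51 to 0.53 between the 25th and 75th percentiles.

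The precision of these estimates was limited. The median standard error of a log2 fold change was 0.42, and the 95% interval reached 0.87 to either side of the estimate in the median contig. For 6734 contigs (28.2%) the whole interval lay within a 2-fold change in either direction, so the data bound the change of those contigs and not of the rest. By the estimate alone, 2488 contigs were at least 2-fold higher and 1821 at least 2-fold lower at 8 feedings. Of these, 1379 and 1107 also had an unadjusted edgeR p under 0.05.

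The libraries stood apart in composition before any contig was compared. SmedSXL_088910, 1006 bases long and the most abundant contig over the 8 libraries also per kilobase, took 9.89% of the SmedSXL counts in replicate 1 at 4 feedings, 23.5% in s1, 14.0% in s2 and 22.7% in s3. At 8 feedings it took 6.77% in replicate 1, 15.3% in s1, 7.93% in s2 and 9.78% in s3. The groups overlapped, but 2 of the 4 libraries at 4 feedings lay above every library at 8 feedings. The mean share was 17.5% ± 6.68 (SD, n = 4) against 9.95% ± 3.79 (SD, n = 4), which did not separate in an exact two-sided permutation of the library means (p = 0.114, and 0.152 after Benjamini-Hochberg adjustment over 4 library measures). The smallest p that this design allows is 0.0286.

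After thinning every library to 5858390 SmedSXL counts, 44356, 41023, 52567 and 43225 SmedSXL contigs had at least 1 count in replicates 1, s1, s2 and s3 at 4 feedings. At 8 feedings the numbers were 58189, 47742, 57917 and 56072. The library s1 at 8 feedings fell below s2 at 4 feedings, and the other libraries at 8 feedings lay above all those at 4 feedings. The means were 45293 ± 5043 (SD, n = 4) and 54980 ± 4916 (SD, n = 4), and the exact permutation p was 0.0571 before and 0.152 after adjustment. The share of the 10 most abundant contigs averaged 22.8% ± 6.99 (SD, n = 4) at 4 feedings and 17.2% ± 5.25 (SD, n = 4) at 8 feedings, with an exact permutation p of 0.229. SmedSXL contigs held 47.6% ± 1.32 (SD, n = 4) and 49.3% ± 1.12 (SD, n = 4) of all counts, with an exact permutation p of 0.114. None of these 4 library measures passed an adjusted p of 0.05. The full column totals ran from 11683666 to 19040989 counts and the SmedSXL counts from 5858390 to 9110094 per library.

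**Figure D1:**
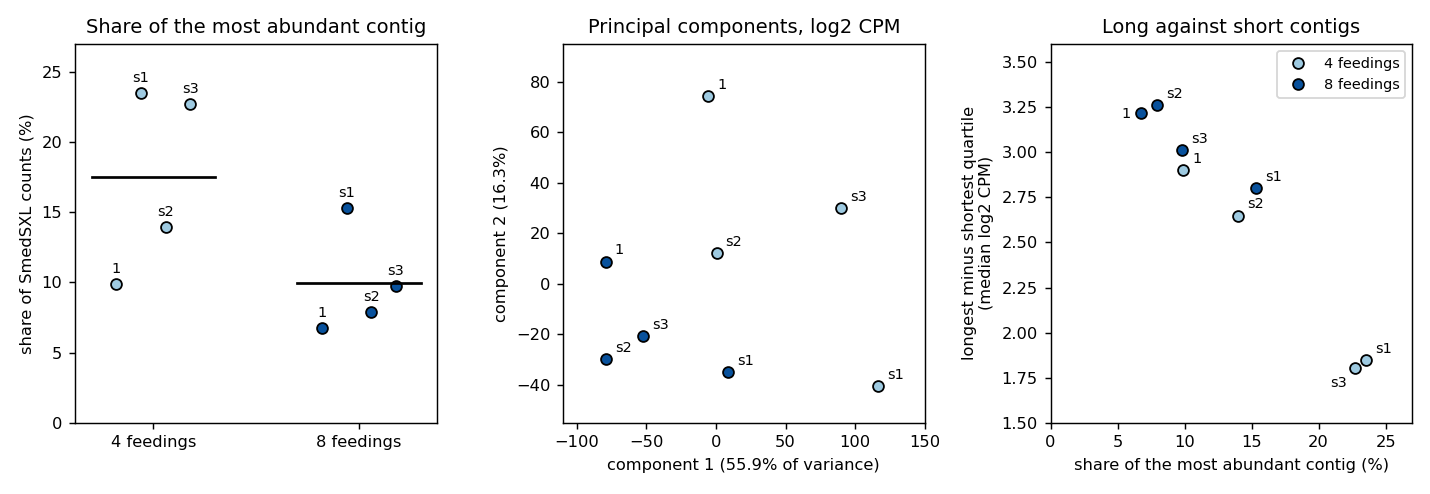
The 8 control libraries, named by replicate, in light blue for 4 feedings and dark blue for 8 feedings: the share of SmedSXL counts taken by SmedSXL_088910 in percent with the group mean as a line (left), the first 2 principal components of log2 CPM (middle), and the median log2 CPM of the longest quartile of contigs minus that of the shortest, against the same share (right). Replicates s1 and s3 at 4 feedings sit apart in each panel, at shares of 23.5% and 22.7% and at length differences of 1.85 and 1.81.

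The first principal component of log2 CPM over the 8 libraries carried 55.9% of the variance. It placed replicates s1 and s3 at 4 feedings at 116.6 and 90.2, and replicates 1 and s2 of that group at -5.62 and 0.51. The libraries at 8 feedings lay at -79.3 for replicate 1, 8.87 for s1, -78.9 for s2 and -52.3 for s3. The groups overlapped, since s1 at 8 feedings lay above replicates 1 and s2 at 4 feedings. The median contig had a standard deviation of log2 CPM of 0.51 among the 4 controls at 4 feedings and 0.35 among those at 8 feedings.

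The change between feedings varied with contig length. Contigs of 201 to 679 bases, the shortest quartile, showed a median log2 change of -0.50, and those of 680 to 1142 bases showed -0.27. Contigs of 1143 to 1794 bases had a median of -0.01, and those of 1795 to 15573 bases, the longest quartile, had 0.41. Over all contigs 11.7% were lower and 8.17% higher at 8 feedings at an unadjusted edgeR p under 0.05. In the shortest quartile 1075 of 5970 contigs (18.0%) passed that p and were lower, while 361 (6.05%) were higher. In the longest quartile the counts turned round, with 852 of 5964 (14.3%) higher and 103 (1.73%) lower. Long contigs were thus more often higher at 8 feedings and short contigs more often lower, by counts that were not tested as a group.

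The same contrast between long and short contigs can be read in each library. The median log2 CPM of the longest quartile exceeded that of the shortest by 2.90 in replicate 1 at 4 feedings, 1.85 in s1, 2.65 in s2 and 1.81 in s3. At 8 feedings the difference was 3.22 in replicate 1, 2.80 in s1, 3.26 in s2 and 3.01 in s3. Replicates s1 and s3 at 4 feedings, which had the highest shares of SmedSXL_088910, had the smallest differences of the 8. The pattern continued in libraries outside the comparison in which SmedSXL_088910 was still more abundant: the difference was 0.90 and 0.31 in controls s2 and s3 at 11 feedings, with shares of 45.6% and 47.5%, and 0.95 in replicate s2 of nhr-1 RNAi at 4 feedings, with a share of 36.9%. Share and length difference moved together in these libraries, and their part in the change between feedings was not tested.

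Without replicates s1 and s3 at 4 feedings, the medians of the 4 length quartiles shrank to -0.22, -0.14, -0.03 and 0.17, in the same order. Scaled by total counts in place of TMM, all contigs together had a median of 0.30 and the length quartiles -0.16, 0.05, 0.30 and 0.70, again in that order but with the middle quartiles above zero. The nhr-1 RNAi libraries, which share no library with the controls, showed medians of -0.69, -0.33, 0.06 and 0.48 between 8 and 4 feedings over the same quartiles. They include replicate s2 at 4 feedings, with 36.9% of its SmedSXL counts on SmedSXL_088910. In median log2 CPM the longest quartile exceeded the shortest by 3.31, 2.67, 0.95 and 2.75 in replicates 1, s1, s2 and s3 at 4 feedings there. At 8 feedings under nhr-1 RNAi it did so by 3.18 to 3.27, a range that replicate 1 at 4 feedings exceeded. By abundance, the lowest quartile of contigs had a median of 0.48 in the controls and the other quartiles -0.13, -0.13 and -0.10. With total counts the 4 abundance medians were 0.80, 0.18, 0.19 and 0.22. The lowest quartile stood above the others under both scalings, with 771 of 5968 (12.9%) higher and 210 (3.52%) lower at an unadjusted edgeR p under 0.05. Over all contigs these shares were 8.17% and 11.7%. The quartile was cut on the same 8 libraries, and its contigs lay near the minimum count for testing. Some may have been tested only through a group where they were high, so the offset of this quartile is no finding. Only 165 of its contigs had an interval inside 2-fold.

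**Figure D2:**
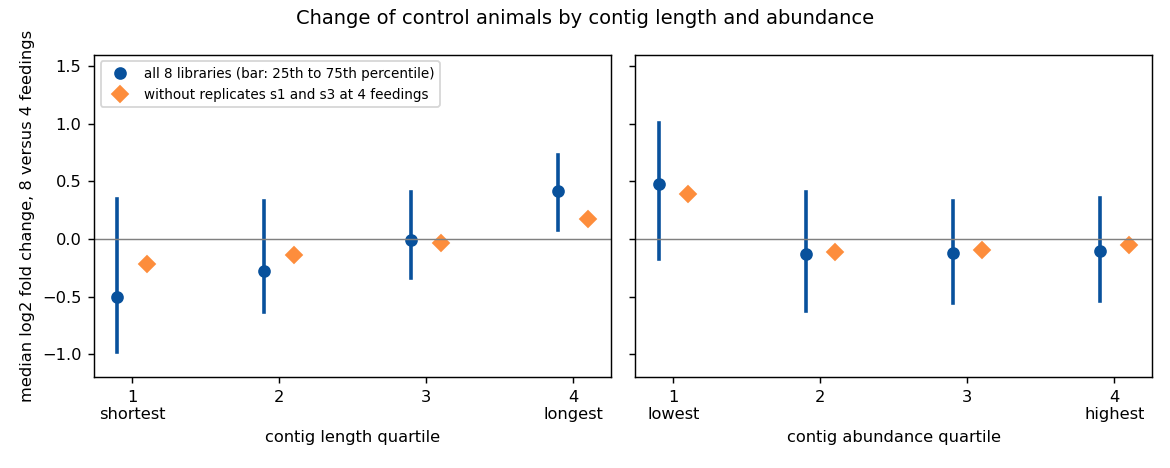
Median log2 fold change of control libraries at 8 versus 4 feedings by quartile of contig length (left) and of mean abundance (right). Blue points are medians over contigs with all 8 libraries and bars run from the 25th to the 75th percentile of contigs; orange diamonds are medians without replicates s1 and s3 at 4 feedings. The length medians climb from -0.50 to 0.41 with all libraries and from -0.22 to 0.17 without those 2.

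The share of contigs at an unadjusted edgeR p under 0.05 moved with nearly every library left out. It was 19.8% with all libraries, 9.15% without replicate s1 at 4 feedings and 8.28% without replicate s3. Leaving out both, it was 3.59%, or 894 of 24884 contigs. It was 27.4% and 24.4% without replicates 1 and s2 at 4 feedings. Among the libraries at 8 feedings it was 11.6% without replicate 1, 25.5% without s1, 9.37% without s2 and 13.2% without s3. It was 9.34% when the log2 share of SmedSXL_088910 was a covariate. It reached 34.0% when the 3 libraries elsewhere in the series with over 30% of their SmedSXL counts on that contig were left out, and that fit called 1678 contigs (6.77%) at an adjusted p under 0.05, 933 higher and 745 lower. Leaving out single libraries of the 2 groups left between 0 and 2 calls, the 2 being made without replicate 1 at 8 feedings.

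**Figure D3:**
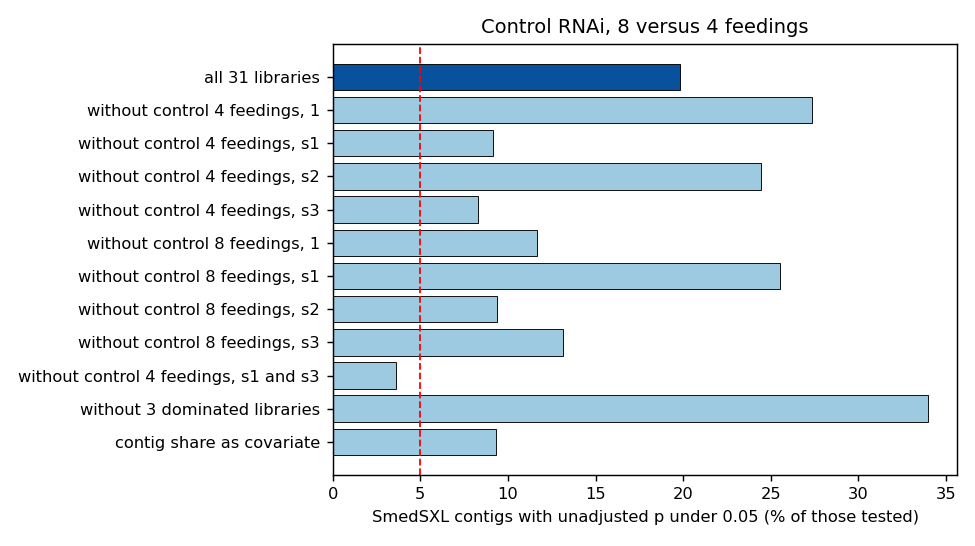
Percentage of tested SmedSXL contigs with an unadjusted edgeR p under 0.05 for control 8 versus 4 feedings, with all 31 libraries in the fit (dark bar) and with libraries left out or the share of SmedSXL_088910 as a covariate (light bars). The dashed line marks 5%. Only the bar without replicates s1 and s3 at 4 feedings, at 3.59%, ends left of it among those drawn.

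No contig was called, so the contigs named here were those with the smallest unadjusted p that averaged at least 1 CPM and did not overlap between the groups, 2 in each direction. CPM values are counts scaled to a common library size with TMM factors. SmedSXL_002873, 1000 bases long, measured 2.82, 2.25, 1.95 and 1.07 CPM in replicates 1, s1, s2 and s3 at 4 feedings. At 8 feedings it measured 2.97 CPM in replicate 1, 9.23 in s1, 10.1 in s2 and 6.09 in s3. The groups met almost at replicate 1, where 42 counts stood against 48, and were far apart in the replicates named with s. The log2 fold change was 1.81 ± 0.33 (SE), with an unadjusted p of 8.07e-06 and an adjusted p of 0.131 by edgeR. DESeq2 gave it an adjusted p of 0.000542 and limma voom one of 0.0106.

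SmedSXL_002873 took another course under nhr-1 RNAi. Its mean there was 0.51 CPM ± 0.14 (SD, n = 4) at 4 feedings and 0.29 CPM ± 0.07 (SD, n = 4) at 8 feedings, with all 8 libraries below the lowest control at 4 feedings. The difference between the feeding change in controls and that under nhr-1 RNAi was 2.70 ± 0.55 (SE) on the log2 scale, with an adjusted p of 0.0053 by edgeR's interaction contrast. That contrast reuses the control libraries that chose the contig. In the other controls the contig measured 2.09 CPM ± 0.64 (SD, n = 3) at 6 feedings and 4.49 CPM ± 0.69 (SD, n = 4) at 11 feedings. At 11 feedings the contig ran from 3.74 to 5.405 CPM, inside the range at 8 feedings, where its mean was 7.08 CPM. It was chosen for its high values at 8 feedings, so the lower mean at 11 feedings is no finding. Its log2 fold change between 11 and 6 feedings in controls was 1.10 ± 0.36 (SE), with an adjusted p of 0.22 by edgeR. A SmedASXL contig, from the second set of contigs in the table, followed its counts over the libraries at r = 0.999, so both may count the same reads.

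SmedSXL_012257, 3294 bases long, measured 1.14, 0.86, 0.73 and 0.57 CPM at 4 feedings in replicates 1, s1, s2 and s3. At 8 feedings it measured 1.80, 2.90, 6.41 and 3.93 CPM in the same order. All libraries at 8 feedings lay above all those at 4 feedings, on 8 to 17 counts per library at 4 feedings and 29 to 111 at 8 feedings. The log2 fold change was 2.18 ± 0.40 (SE), with an adjusted p of 0.131 by edgeR and of 0.000484 by DESeq2. Under nhr-1 RNAi the change was 1.11 ± 0.43 (SE) with an adjusted edgeR p of 0.117, and the difference between the 2 changes had an adjusted edgeR p of 0.628. The interval of that difference, from -0.15 to 2.29 on the log2 scale, held both no difference and a larger change in controls. Controls at 6 and 11 feedings averaged 1.24 CPM ± 0.39 (SD, n = 3) and 1.86 CPM ± 0.86 (SD, n = 4).

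Of the contigs lower at 8 feedings, SmedSXL_021509, 921 bases long, measured 13.2, 22.7, 10.8 and 15.7 CPM at 4 feedings in replicates 1, s1, s2 and s3. At 8 feedings it measured 9.60, 7.14, 6.29 and 5.64 CPM. The groups were separated by about 1 CPM between s2 at 4 feedings and replicate 1 at 8 feedings. The log2 fold change was -1.12 ± 0.25 (SE), with an adjusted p of 0.241 by edgeR and of 0.0296 by DESeq2. Its mean was 8.84 CPM ± 0.97 (SD, n = 3) in controls at 6 feedings and 11.7 CPM ± 4.25 (SD, n = 4) at 11 feedings. Under nhr-1 RNAi it was -0.17 ± 0.25 (SE), and the difference between the arms had an adjusted edgeR p of 0.186.

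SmedSXL_006938, 913 bases long, measured 8.87, 15.3, 9.80 and 11.3 CPM at 4 feedings and 5.45, 6.98, 7.04 and 5.71 CPM at 8 feedings, in the order 1, s1, s2 and s3. No library at 8 feedings reached the lowest at 4 feedings. The log2 fold change was -0.84 ± 0.20 (SE), with an adjusted p of 0.241 by edgeR, 0.0576 by DESeq2 and 0.0106 by limma voom. Controls at 6 feedings averaged 6.42 CPM ± 1.42 (SD, n = 3) and those at 11 feedings 8.36 CPM ± 1.31 (SD, n = 4). A SmedASXL contig followed it at r = 1.00.

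**Figure D4:**
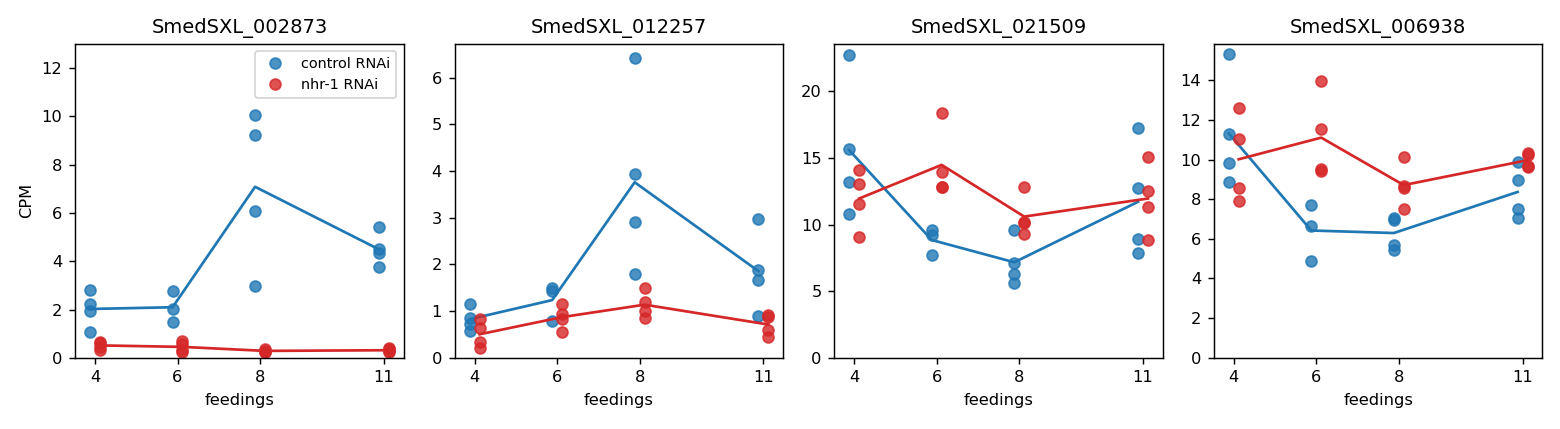
CPM of the 4 named contigs in each library by number of feedings, controls in blue and nhr-1 RNAi in red, with lines through the group means; vertical axes differ between panels. The controls at 8 feedings lie above those at 4 feedings for SmedSXL_002873 and SmedSXL_012257 and below them for SmedSXL_021509 and SmedSXL_006938, and these contigs were chosen for not overlapping.

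SmedSXL_088910 itself had a log2 fold change of -1.15 ± 0.72 (SE) between 8 and 4 feedings, with an adjusted p of 0.309 by edgeR. Its interval, from -2.61 to 0.32, held both no change and a large fall. The contig with the third highest mean count per kilobase over the 8 libraries, SmedSXL_014674, is 715 bases long and was singled out after its values were seen. It measured 778.8 CPM in replicate 1, 8274 in s1, 1288 in s2 and 40.1 in s3 at 4 feedings, and 594.2, 9123, 8448 and 3451 CPM at 8 feedings. The replicates at 4 feedings alone ran from 40.1 to 8274 CPM, and the groups overlapped. Its log2 fold change was 1.06 ± 0.97 (SE), with an adjusted p of 0.473 by edgeR. Under nhr-1 RNAi the same contig lay between 7.15 and 129.6 CPM in all 16 libraries. A further 6 tested SmedSXL contigs followed its log2 counts at r over 0.99 over the 31 libraries, so 1 abundant and variable transcript may stand in the table more than once.

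The 39 contigs that DESeq2 called are the shorter of the lists given by the other tools. The 35 higher ones had a median log2 fold change of 1.65 by edgeR's estimate, from 0.34 to 5.74, and 28 of them averaged at least 1 CPM. Their mean log2(CPM + 1) was 2.73, 2.50, 2.55 and 2.38 in replicates 1, s1, s2 and s3 at 4 feedings and 3.44, 3.397, 3.82 and 3.72 at 8 feedings. In controls that did not choose them, the mean was 2.76 to 3.31 at 6 feedings, below all libraries at 8 feedings. At 11 feedings it was 2.57 to 3.54, where replicate 1 alone reached the range at 8 feedings. Between 11 and 6 feedings 15 of the 35 had a positive estimate, with a median of -0.08, and between 8 and 4 feedings under nhr-1 RNAi their median was 0.43. Of the 35, 5 were lower after nhr-1 RNAi at 6 feedings and 6 at 11 feedings, where 12.1% and 24.7% of all contigs were, so these counts are near or below those of all contigs. Of the 35, 19 belonged to the longest quartile of contigs. Since they were chosen for high values at 8 feedings, their lower values in other controls are no finding.

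The 4 contigs that DESeq2 called lower had a median log2 fold change of -0.84. Their mean log2(CPM + 1) lay between 6.26 and 6.96 in the controls at 4 feedings and between 5.55 and 5.96 at 8 feedings. The other controls stood with those at 8 feedings, at 5.85 to 5.95 at 6 feedings and 5.74 to 5.99 at 11 feedings. The nhr-1 RNAi arm was called higher than controls for 3 of the 4 at 6 feedings, beside 0.545% of all contigs. At 11 feedings it was called higher for 3, beside 6.68% of all contigs. The contigs were chosen for high values in the controls at 4 feedings, so their lower values in the other controls are no finding.

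A set of 17 contigs, 16 higher and 1 lower, passed an adjusted p of 0.05 in each of DESeq2, limma voom, the edgeR fit without the 3 dominated libraries and the edgeR fit of libraries named with s. Of the 4 named contigs, 3 were in it, SmedSXL_006938 being the exception. The 16 higher contigs had a median log2 fold change of 1.73, from 0.72 to 3.24. Their mean log2(CPM + 1) lay between 1.64 and 2.18 in the controls at 4 feedings and between 2.79 and 3.29 at 8 feedings. At 6 feedings it was 2.13 to 2.78 and at 11 feedings 1.83 to 2.94. Of the 16, 3 were called lower after nhr-1 RNAi at 6 feedings, beside 12.1% of all contigs. The 16 were chosen on the controls at 4 and 8 feedings, so their separation there is a description.

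A different reading of the controls takes the contigs that were lower after nhr-1 RNAi. At 6 feedings, in libraries that share none with the comparison, 2878 SmedSXL contigs (12.1%) were lower after nhr-1 RNAi by the edgeR test. In controls their mean log2(CPM + 1) was 3.25 in replicate 1, 2.42 in s1, 3.19 in s2 and 3.05 in s3 at 4 feedings, and 3.31, 2.71, 3.03 and 2.96 at 8 feedings. The groups overlapped nearly completely, at 2.98 ± 0.38 (SD, n = 4) and 3.0 ± 0.25 (SD, n = 4). The median log2 fold change of the list between 8 and 4 feedings was -0.10, against 0.00 over all contigs tested. At an unadjusted p under 0.05, 84 were higher and 69 lower, together 5.32% of the list against the 19.8% of all contigs. The groups did not overlap for 17 higher and 163 lower, together 6.25% of the list against 13% of all contigs. Over all contigs the directions were near equal, with 1563 (6.55%) higher and 1535 (6.43%) lower. By this count the list leaned to lower, which it did not do by the unadjusted p. Without replicates s1 and s3 at 4 feedings the median was -0.27, against -0.03 over all contigs.

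The same 2878 contigs under nhr-1 RNAi averaged 2.61 ± 0.19 (SD, n = 4) at 4 feedings and 1.43 ± 0.18 (SD, n = 4) at 8 feedings, with no overlap. Of them, 2103 were called lower at 8 than at 4 feedings under nhr-1 RNAi, where 2778 SmedSXL contigs (11.6%) were called in all, 2691 (11.3%) lower and 87 (0.364%) higher. The median log2 fold change there was -1.83. The list was chosen on nhr-1 RNAi and control libraries at 6 feedings, which lie between those 2 time points but share no library with them. In the controls the level of the list stayed between 2.98 and 3.14 on average at 4, 6, 8 and 11 feedings. The 3.14 is the mean at 6 feedings, where high control values helped to choose the list.

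**Figure D5:**
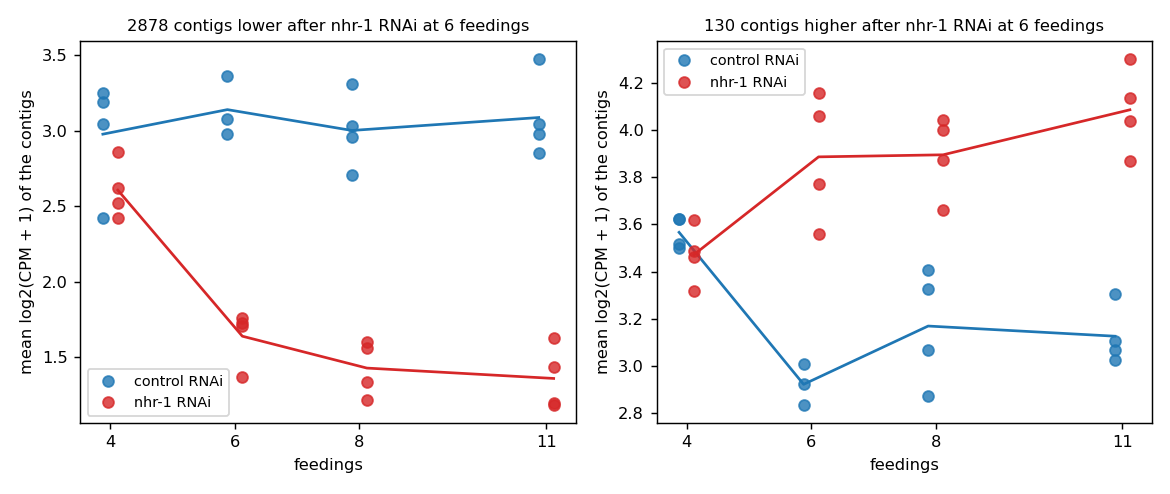
Mean log2(CPM + 1) per library of the contigs called lower (left, 2878 contigs) and higher (right, 130 contigs) after nhr-1 RNAi at 6 feedings, by number of feedings, controls in blue and nhr-1 RNAi in red with lines through the group means. The values at 6 feedings chose the contigs; at 4 and 8 feedings the controls overlap in the left panel and lie at 3.50 to 3.62 and 2.88 to 3.41 in the right panel.

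The 130 contigs (0.545%) that were higher after nhr-1 RNAi at 6 feedings stood lower in the controls at 8 feedings than in those at 4 feedings. Their mean log2(CPM + 1) was 3.62, 3.62, 3.50 and 3.52 in replicates 1, s1, s2 and s3 at 4 feedings and 2.88, 3.41, 3.07 and 3.33 at 8 feedings. No control at 8 feedings reached the lowest at 4 feedings. The median log2 fold change was -0.38. At an unadjusted edgeR p under 0.05, 34 were lower and 2 higher, or 26.2% and 1.54% of the list against 11.7% and 8.17% of all contigs. Without replicates s1 and s3 at 4 feedings the median was -0.21, and scaled by total counts it was -0.0545, where all contigs had a median of 0.30.

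Controls at 11 feedings, which did not choose these 130 contigs, averaged 3.13 ± 0.12 (SD, n = 4), below every control at 4 feedings. Under nhr-1 RNAi the same contigs averaged 3.47 ± 0.12 (SD, n = 4) at 4 feedings and 3.89 ± 0.17 (SD, n = 4) at 8 feedings. There 7 of the 130 were called higher at 8 feedings by edgeR, beside 0.364% of all contigs. The controls at 4 feedings thus lay near the nhr-1 RNAi libraries at 4 feedings in these contigs, and later controls lay lower.

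The lists made at 11 feedings gave other medians. The 5894 contigs (24.7%) lower after nhr-1 RNAi at 11 feedings had a median log2 fold change of -0.48 in controls between 8 and 4 feedings, with 818 lower and 121 higher at an unadjusted edgeR p under 0.05. These are 13.9% and 2.05% of the list, against 11.7% and 8.17% of all contigs. The list had a median of -0.29 without replicates s1 and s3 at 4 feedings. The 1595 (6.68%) that were higher had a median of 0.17, with 81 lower and 149 higher, or 5.08% and 9.34% against the same 11.7% and 8.17%. These lists differed in length, with 42.1% of the first in the shortest quartile of contigs and 53.5% of the second in the longest. The controls at 11 feedings that chose them include the 2 libraries with 45.6% and 47.5% of SmedSXL counts on SmedSXL_088910. The part of length and of that contig in these medians was not tested.

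The test of the difference between the arms called 982 SmedSXL contigs (4.11%), of which 974 (4.08%) had a more positive change in controls and 8 (0.0335%) a more negative one. In the 974, the median log2 fold change was -0.09 in controls and -2.29 under nhr-1 RNAi, so by these medians the difference lay in the nhr-1 RNAi arm. Both values come from the contrast that chose the contigs and are given as a description. The 8 contigs of the other sign had medians of -0.98 in controls and 1.29 under nhr-1 RNAi. Of the 2691 contigs called lower at 8 feedings under nhr-1 RNAi, a choice that used no control library, 17 were higher and 174 lower in the controls at an unadjusted edgeR p under 0.05. These are 0.632% and 6.47% of that list, both below the 8.17% and 11.7% of all contigs, and the median in controls was -0.32.

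The feeding changes in independent libraries can be set side by side over the 23870 contigs. The log2 fold changes of controls at 8 versus 4 feedings correlated with those under nhr-1 RNAi at Pearson's r = 0.57 and Spearman's rho = 0.67. Without the dominated replicate s2 of nhr-1 RNAi at 4 feedings, these were r = 0.40 and rho = 0.56. With controls at 11 versus 6 feedings, the changes of controls at 8 versus 4 feedings correlated at r = -0.55 and rho = -0.63. These became r = 0.49 and rho = 0.50 once the dominated controls s2 and s3 at 11 feedings were left out. Contigs share libraries, depth and length and are no independent replicates, so these are descriptions. The sign of the correlation with controls at 11 versus 6 feedings was set by whether controls s2 and s3 at 11 feedings were included. Between 11 and 6 feedings edgeR called 0 contigs in controls, with 3254 at an unadjusted p under 0.05, while DESeq2 called 911 (3.82%) and limma voom 461 (1.93%).

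Contigs were split by whether a contig with closely similar counts stood among the SmedASXL contigs, and no sequences were compared. The 15243 with a match, meaning a SmedASXL contig with a total count within 5% and r over 0.95, had a median log2 fold change of -0.07 in controls. The 8627 without one had 0.15. The contigs without a match were shorter, with a median length of 820 bases against 1379. They were also less abundant, with a mean log2(CPM + 1) of 1.19 against 3.17 in the controls at 4 feedings. The part of length and abundance in these medians was not tested. At an unadjusted edgeR p under 0.05, 898 contigs without a match (10.4%) were higher and 565 (6.55%) lower, against 1052 (6.90%) and 2222 (14.6%) of those with one.

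A search for contigs that were absent in 1 group found few. After thinning, 5 SmedSXL contigs had 0 counts in every control at 4 feedings and at least 3 in every control at 8 feedings, and 0 contigs showed the converse. Together the 5 had 0 counts in the full libraries at 4 feedings, where 3 counts per library are the limit that a count of 0 allows, and 24 to 36 counts per library at 8 feedings. The controls at 6 feedings held 3 to 19 counts of them and those at 11 feedings 1 to 38. The nhr-1 RNAi libraries at 4 feedings held 4 to 31 counts, with a count for 3 or 4 of the 5 contigs in each library. Animals fed 4 times in the other arm thus carried some of these contigs, which were chosen on their values in the controls and were given no test. These limits cover counting error only.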

How the data were processed

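Whole-number read counts per reference sequence were used as the authors deposited them, in 1 table for all libraries. Bowtie2 is named per the submitters' processing notes; its version is not given in the sources used here, nor are the counting program or the strand setting. Library titles identified each column, leaving 0 unused. The row with no name held 0 counts and was left out. A control labelled 7 feedings (1 library) entered no fit.

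The counts of 31 libraries were fitted with edgeR 4.0.16 in R 4.3.3 (TMM, filterByExpr with a minimum count of 10 and a minimum total of 15, 8 group means, no covariate, quasi-likelihood test). The Benjamini-Hochberg adjustment ran over the 45762 sequences tested, SmedASXL contigs included, with calls made at an adjusted p under 0.05. The tested contigs held 98.7% to 99.5% of the SmedSXL counts of the 8 libraries. The standard error is the log2 fold change over the square root of F, with 4.65 prior degrees of freedom. DESeq2 1.42.0 and limma 3.58.1 (voom with sample weights) were alternatives. Library values were compared by two-sided exact permutation tests over 70 splits. Means of lists use log2(CPM + 1). The scripts were tested on simulated data. No 2 replicates of a group agreed within sampling noise, the lowest chi-square per degree of freedom being 14.7.

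Named contigs were to be the 2 called contigs with the most positive and the 2 with the most negative change, at 1 CPM or more and with no overlap between groups; with none called, the smallest p filled the places, and 0 were skipped as copies at r over 0.99. SmedSXL_088910 was named for its abundance. The members and lists were chosen with earlier results of these data known. No gene names or sequences were used here, so no marker or pathway list was examined, and the level of nhr-1 was not analysed here. Alternatives covered normalization, filter, test, libraries and sequences in the fit, covariates and left-out libraries.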

Additional observations from a re-analysis of the deposited data

Results flagged for a closer look

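In the controls at 4 feedings, SmedSXL_014674 stood at 8274 CPM in replicate s1, while the other 3 libraries lay between 40.1 and 1288 CPM. Under nhr-1 RNAi at 4 feedings, replicate s2 stood apart for 2 contigs: SmedSXL_088910 measured 304566 CPM against 33760 to 77023 in the other libraries, and SmedSXL_014674 measured 129.6 CPM against 13.9 to 25.3. A gap of this size to the nearest library, relative to the range of the group, was what singled these values out by Dixon's criterion, which picks about 1 in 20 groups by chance. Library measures, contig levels and list levels were all screened in this way, so some such values arise by chance.

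The feeding change differed between controls and nhr-1 RNAi for 982 contigs by edgeR's interaction contrast at an adjusted p under 0.05. For SmedSXL_002873 that difference was 2.70 on the log2 scale, with an adjusted edgeR p of 0.0053. The estimate was 1.81 in controls and -0.90 under nhr-1 RNAi. The contig was chosen because the controls at 8 and 4 feedings did not overlap. The difference reuses those controls, so it is given as a description.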

How the results depend on the processing

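For control 8 versus 4 feedings, edgeR called 0 contigs under RLE factors, total counts, only the 2 groups, only the 15 control libraries, SmedSXL contigs alone, without the 3 most abundant sequences, with the share of SmedSXL_088910 as a covariate and without both libraries above 20% (the last 2 chosen after seeing the data). Calls were 28 with no filter, 39 by DESeq2, 6155 by limma voom, 1678 without the 3 dominated libraries, 14 with a term for names with s and 190 in libraries named with s only, and 0 to 2 leaving out each library. With replicate names as a block they were 6703, but same-named libraries deviated together at r = 0.32, 0.61, 0.38 and -0.00035 for names 1, s1, s2 and s3, and s3 at 4 feedings correlated best with another name, so the names were not taken as a pairing, although 3 of 4 correlations are positive. Under nhr-1 RNAi, 2778 calls became 1796 by total counts, 10327 by voom, 1763 with the block and 1978 to 4933 leaving out a library, the highest without its replicate 1 at 4 feedings. The 982 contigs that differ between arms became 576 by total counts, 1480 by DESeq2, 2432 by voom, 1692 without the dominated libraries, 1694 with the block, 590 with s names only, 2149 with the covariate and 484 to 1135 leaving out a library; they were 510 without control replicate 1 at 8 feedings, 538 without nhr-1 RNAi replicate s3 at 4 feedings, and 567 and 484 without its replicates 1 and s1 at 8 feedings. Control 11 versus 6 feedings went from 0 to 304 with no filter, 911 by DESeq2, 461 by voom, 1 with the s term, 12 with s names only and 0 to 2442 leaving out a library, the highest without control replicate 1 at 11 feedings. List medians moved as follows. The contigs higher after nhr-1 RNAi at 6 feedings went to -0.0545 by total counts and -0.21 without both high libraries, and those lower at 11 feedings to -0.13 and -0.29. Those higher at 11 feedings went to 0.46 by total counts. Contigs with a SmedASXL match went to -0.17 at r over 0.99 and 0.24 by total counts, and those without to 0.47 by total counts and 0.0757 without both high libraries. Total counts moved the median of all contigs to 0.30. Contigs with an interval inside 2-fold numbered 5133 to 6754 leaving out each library, and the estimates of SmedSXL_002873, SmedSXL_012257, SmedSXL_021509 and SmedSXL_006938 kept their sign in every alternative run on them. The cause of these moves was not tested. In the lowest abundance quartile 165 of 5968 contigs had an interval inside 2-fold, against 2602 of 5968 in the highest.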
